A study of Mus musculus with 12 samples.

Results

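The 10 genes described here encode enzymes that make phosphatidylcholine and phosphatidylethanolamine. They are *Chka*, *Pcyt1a*, *Chpt1* and *Cept1* of the choline branch, *Etnk1*, *Pcyt2* and *Selenoi* of the ethanolamine branch, *Pemt*, and *Ptdss1* and *Pisd* of the serine route. These genes were chosen by name and role from the 54232 genes of the count table, with earlier results of these data known. The same holds for the other gene lists, so their counts beside the share over all genes are a description and not a test. RNA-seq counts came from whole liver of 6 WT and 6 *Marchf6* LKO male C57Bl/6J mice, with 1 library per mouse, all 10 weeks old, on chow and fasted for 4 h. Both groups carried floxed *Marchf6* alleles (fl/fl). The LKO mice also carried AlbuminCre, whose albumin promoter drives Cre in hepatocytes, while *Marchf6* in the other cells of the liver was not measured apart, and the WT mice were littermates without Cre. Between 14860414 and 22111926 reads were counted on genes per liver. Library numbers were lower in the WT than in the LKO group throughout, so the order of the libraries and the genotype cannot be told apart.

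Phosphatidylcholine and phosphatidylethanolamine are the main phospholipids of mammalian membranes. Each is assembled in the endoplasmic reticulum by a Kennedy pathway, in which choline or ethanolamine is phosphorylated, activated with CTP and transferred to diacylglycerol. Liver has a further route, in which phosphatidylethanolamine is methylated to phosphatidylcholine, and it uses phosphatidylcholine to coat lipoproteins and to fill bile. MARCHF6 is a ubiquitin ligase of the endoplasmic reticulum membrane, and the comparison asks whether its loss from hepatocytes came with other mRNA levels of these enzymes.

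*Marchf6* (ENSMUSG00000039100, GRCm38 chromosome 15, 31455891 to 31531053) had 226, 244 and 247 normalized CPM (read counts scaled to a common library size) as the lowest, median and highest WT values and 204, 227 and 249 in LKO livers. The groups overlapped. The deposited count covers every exon while the conditional allele loses 1, named by the study's methods as the third in one place and the second elsewhere. A count over all exons does not check the genotype labels. The hepatocyte marker *Alb* had 1049348 to 1506750 reads per liver, and none of the 6 hepatocyte markers listed was without reads in any liver.

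None of the 10 synthesis genes differed between the genotypes beyond the spread among livers. All 10 were among the 17509 genes tested with edgeR's quasi-likelihood test, and 0 passed an adjusted p of 0.05, against 0.428% of all genes tested. At an unadjusted p under 0.05 there were also 0, against 11.7% of all genes tested, and limma voom and DESeq2 called 0 of them as well, against 0.485% and 2.31% of the genes to which they gave an adjusted p. LKO and WT livers did not overlap for 0 of the 10, against 1.30% of all genes tested. Log2 fold changes of LKO over WT were above 0 for 7 and below 0 for 3, with a median of 0.02 beside 0.00016 over all genes tested. Their median size without regard to sign was 0.05, beside 0.13 over all genes tested. For 9 of the 10 the 95% interval of the log2 fold change lay within 0.5 of 0 on either side, a 1.41-fold difference, and *Chka* was the exception. Whole liver RNA cannot tell fewer cells of a type from less RNA per cell.

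**Figure D1:**
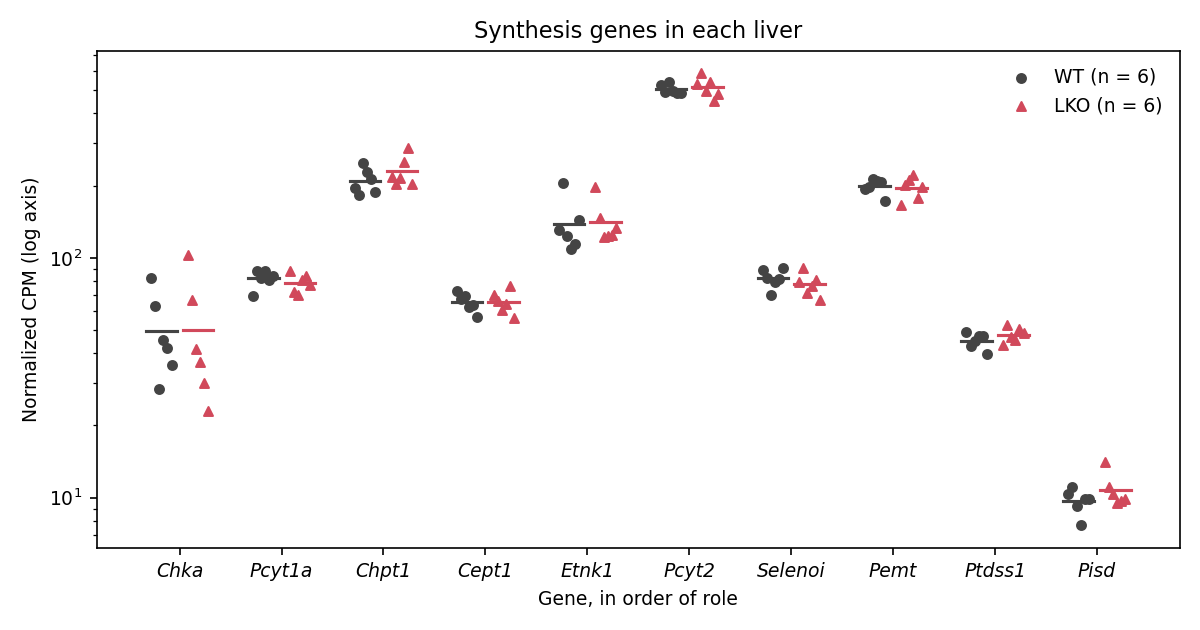
Normalized CPM of the 10 synthesis genes in each liver, on a log axis. Circles are the 6 WT livers, triangles the 6 LKO livers and horizontal lines the group means; the genotypes overlap for every gene, and *Chka* spreads most within a genotype.

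*Chka* encodes choline kinase alpha, which traps choline in the cell as phosphocholine in the opening step of the choline branch. Its normalized CPM were 28.3, 43.7 and 82.2 as the lowest, median and highest in WT livers and 23.0, 39.2 and 103 in LKO livers. WT replicates 1 and 2 and LKO replicates 1 and 2 were the highest of their groups, and the LKO livers spanned the whole WT range. The means were 49.4 ± 19.8 and 50.1 ± 29.6 (SD, n = 6 each), and the log2 fold change was 0.02 with a 95% interval from −0.69 to 0.73 (edgeR adjusted p = 0.992). This interval holds folds from 0.619 to 1.66, so the values of these livers allow a difference within that range. The fold change turned to −0.08 with limma voom and to −0.32 without LKO replicate 1, and LKO values were above the WT mean in 2 of 6 livers. The SD of log2 CPM within genotype was 0.679 for *Chka*, higher than that of 97.3% of the 12775 genes with a mean of at least 1 CPM.

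*Pcyt1a* encodes the alpha form of CTP:phosphocholine cytidylyl transferase, the step that limits the rate of the choline branch and that is switched on when the enzyme binds membranes. Normalized CPM of *Pcyt1a* were 69.2, 82.9 and 88.2 (lowest, median, highest) in WT livers and 69.9, 78.9 and 88.2 in LKO livers. The ranges were nearly the same, and 5 of the 6 LKO values lay inside the WT range. Its log2 fold change was −0.06 with a 95% interval from −0.22 to 0.10 (edgeR adjusted p = 0.815).

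*Chpt1* and *Cept1* encode the transferases that finish the branch. *Chpt1*, a cholinephosphotransferase of the Golgi apparatus, had 183, 203 and 249 normalized CPM (lowest, median, highest) in WT livers and 202, 216 and 287 in LKO livers. LKO replicate 5 was the highest of all, 4 of 6 LKO livers were above the WT mean, and the groups overlapped. The log2 fold change of *Chpt1* was 0.13 with a 95% interval from −0.08 to 0.35 (edgeR adjusted p = 0.653), and 0.058 without LKO replicate 5. *Cept1*, whose product sits in the endoplasmic reticulum and accepts both CDP-choline and CDP-ethanolamine, had 56.8, 65.2 and 72.7 normalized CPM in WT livers and 55.9, 64.9 and 76.4 in LKO livers. Of the LKO values of *Cept1*, 4 lay inside the WT range, with LKO replicate 6 below it and LKO replicate 5 above it. The fold of *Cept1* was 1.00 with a 95% interval from 0.890 to 1.13 (edgeR adjusted p = 0.994). Exons of *Cept1* share 24.7% of their length with *Dennd2d* on the opposite strand, which had 6.95 mean CPM in WT livers, and those of *Chpt1* share 7.93% with *Sycp3*, also on the opposite strand and at 0.647 mean CPM. The strand setting of the counting is not given in the sources used here, so both genes' values are uncertain to that extent. The same holds for *Pcyt1a*, whose exons share 7.65% with *Slc51a* on the opposite strand, at 0.255 mean CPM in WT livers. Exons of *Ptdss1* likewise share 5.33% with *Mterf3* on the opposite strand, at 23.5 mean CPM in WT livers. A 303-nt stretch of *Chpt1* is also 95.05% identical to *Gm13131*, at 2.74 mean CPM, and reads could be split between these copies.

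In the ethanolamine branch, *Etnk1* encodes an ethanolamine kinase of the opening step. *Etnk1* had 109, 127 and 206 normalized CPM (lowest, median, highest) in WT livers and 122, 129 and 198 in LKO livers. In each genotype 1 liver stood apart, WT replicate 2 at 206 and LKO replicate 1 at 198, and all 6 LKO values lay inside the WT range. The log2 fold change of *Etnk1* was 0.04 with a 95% interval from −0.29 to 0.37 (edgeR adjusted p = 0.959). It ran from −0.08 without LKO replicate 1 to 0.18 without WT replicate 2.

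*Pcyt2* encodes CTP:phosphoethanolamine cytidylyl transferase, the counterpart of *Pcyt1a* in this branch. Its values were 485, 492 and 540 normalized CPM (lowest, median, highest) in WT livers and 449, 512 and 587 in LKO livers. The LKO livers were the more spread, with 48.9 CPM as their SD against 23.0 in WT livers, and 3 of the 6 fell inside the WT range. The log2 fold change was 0.03 with a 95% interval from −0.12 to 0.18 (edgeR adjusted p = 0.919). *Selenoi* encodes ethanolaminephosphotransferase, a selenoprotein that joins CDP-ethanolamine to diacylglycerol. Normalized CPM of *Selenoi* were 70.2, 82.0 and 90.7 in WT livers and 66.7, 77.7 and 90.5 in LKO livers. LKO replicate 6 was the lowest of all 12 and 1 of 6 LKO livers was above the WT mean, but the groups overlapped almost fully. Its log2 fold change was −0.09 with a 95% interval from −0.26 to 0.09 (edgeR adjusted p = 0.731).

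*Pemt* encodes the enzyme that methylates phosphatidylethanolamine to phosphatidylcholine with S-adenosylmethionine, an activity found mainly in hepatocytes. Its normalized CPM were 172, 202 and 214 (lowest, median, highest) in WT livers and 167, 199 and 220 in LKO livers. The lowest values were those of LKO replicate 1 and WT replicate 6, and the groups overlapped. The log2 fold change was −0.02 with a 95% interval from −0.19 to 0.14 (edgeR adjusted p = 0.942), which allows a fold from 0.876 to 1.10.

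The serine route makes phosphatidylethanolamine in mitochondria from phosphatidylserine. *Ptdss1* encodes phosphatidylserine synthase 1, which exchanges the choline of phosphatidylcholine for serine. *Ptdss1* had 39.6, 46.1 and 49.1 normalized CPM (lowest, median, highest) in WT livers and 43.3, 47.7 and 52.3 in LKO livers. The WT mean was exceeded in 5 of 6 LKO livers, but the groups overlapped, with 4 of the 6 LKO values inside the WT range. For *Ptdss1* the log2 fold change was 0.08 with a 95% interval from −0.06 to 0.22 (edgeR adjusted p = 0.683). *Pisd* encodes phosphatidylserine decarboxylase of the inner mitochondrial membrane. *Pisd* had 7.67, 9.88 and 11.1 normalized CPM in WT livers and 9.51, 10.1 and 14.1 in LKO livers. LKO replicate 1 stood above all others, and the other 5 LKO values lay inside the WT range. Its log2 fold change, 0.15 with a 95% interval from −0.09 to 0.39 (edgeR adjusted p = 0.646), was the largest among the 10 in size and was 0.06 without LKO replicate 1. *Pisd* had 114 to 303 reads per liver, the fewest of the 10, and its values are uncertain because a 1128-nt stretch is 94.1% identical to the pseudogene *Pisd-ps1*, at 8.04 mean CPM in WT livers, and because 20.1% of its exon length is shared on the same strand with *Gm20671*, which had 0 reads in every liver.

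The levels of the 10 genes differed widely when CPM were divided by the length in kb of the exons of their protein-coding transcripts. In WT livers *Pcyt2* stood highest at 267 ± 12.2 CPM per kb (SD, n = 6), followed by *Pemt* at 174 ± 13.1. No WT liver of the one overlapped a WT liver of the other, and both stood apart from the rest. *Chpt1* followed at 26.3 ± 3.20 CPM per kb, and each of the next genes in order, *Cept1*, *Chka*, *Pcyt1a*, *Etnk1*, *Ptdss1* and *Selenoi*, overlapped the one before it, down to 12.1 ± 1.07 for *Selenoi*. *Pisd* was lowest at 3.27 ± 0.396 CPM per kb, apart from all others. With the length of all annotated exons instead, a choice made after the data were seen, *Pcyt2* stood at 116 ± 5.29 and *Pemt* at 94.6 ± 7.14 CPM per kb (SD, n = 6), still without overlap. By that length the first 4, *Etnk1* and *Pisd* kept their places, while *Chka*, whose length grew from 2603 to 12024 nt, moved from rank 5 to rank 9.

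Ratios of raw counts within a liver do not depend on the scaling of a library, and since they follow the lengths of both transcripts they are read between livers only. The ratio of *Pemt* to *Pcyt1a*, the methylation route beside the rate-limiting gene of the choline branch, was 2.06, 2.47 and 2.81 (lowest, median, highest) in WT livers and 1.89, 2.64 and 3.03 in LKO livers. For *Pcyt2* over *Pcyt1a*, the cytidylyl transferases of both branches, it was 5.58, 5.90 and 7.56 in WT livers and 5.33, 6.45 and 8.19 in LKO livers. *Cept1* over *Chpt1* gave 0.276, 0.300 and 0.374 in WT livers and 0.256, 0.278 and 0.324 in LKO livers. The genotypes overlapped in each of these ratios, and the differences of the mean log2 ratios, 0.03, 0.09 and −0.13, were below the SD of the WT livers, 0.16, 0.17 and 0.19.

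Apart from the genotype, the 10 genes did not vary as one group. Deviations of log2 CPM from the genotype mean were correlated over the 12 livers for all 45 pairs, of which 27 had a Pearson r above 0 and 18 below, with a median of 0.12. After Benjamini-Hochberg adjustment over the 45 pairs, 1 pair passed by Pearson r and 0 by Spearman's rho, while 3 passed by r and 5 by rho at an unadjusted p under 0.05. The pair that passed was *Etnk1* and *Pisd*, with r = 0.84 (permutation p = 0.00067, adjusted p = 0.0301) and rho = 0.78 (permutation p = 0.00419, adjusted p = 0.189). The r was 0.75 among WT and 0.96 among LKO livers, and 0.66 over the 10 livers left without WT replicate 2 and LKO replicate 1, the livers farthest from the median of *Etnk1*. Among 12774 genes, 2.21% had a higher r with *Etnk1* than *Pisd* had, and the uncertainty of the *Pisd* count holds here too.

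By Pearson r the next pairs were those of *Chka*, with r = 0.72 to *Pisd* (permutation p = 0.0138, adjusted p = 0.311; rho = 0.65, permutation p = 0.0329, adjusted p = 0.409) and r = 0.59 to *Etnk1* (permutation p = 0.0495, adjusted p = 0.504; rho = 0.32, permutation p = 0.313, adjusted p = 0.694). Without WT replicate 1 and LKO replicate 1, the livers farthest from the median of *Chka*, these r were 0.45 and 0.46, and neither pair passed the adjustment. By rho, 3 pairs with an unadjusted p under 0.05 ran in opposite directions. They were *Etnk1* and *Pemt* (rho = −0.69, permutation p = 0.0176, adjusted p = 0.395; r = −0.55, permutation p = 0.0660, adjusted p = 0.504), *Selenoi* and *Pemt* (rho = −0.64, permutation p = 0.0387, adjusted p = 0.409; r = −0.45, permutation p = 0.176, adjusted p = 0.616), and *Chpt1* and *Etnk1* (rho = −0.62, permutation p = 0.0454, adjusted p = 0.409; r = −0.53, permutation p = 0.0783, adjusted p = 0.504). Without the 2 livers farthest from the median of the gene named first, their r were −0.55, −0.57 and −0.59. LKO replicate 1 had the highest *Chka*, *Etnk1* and *Pisd* values of the LKO livers and the lowest *Pemt*. The correlation with the log2 total count of a library was −0.08 for *Chka*, 0.24 for *Etnk1* and 0.28 for *Pisd* (permutation p = 0.835, 0.455 and 0.411; rho = −0.28, 0.11 and 0.10 with permutation p = 0.417, 0.737 and 0.779; over 10 genes each adjusted p of r was at least 0.527). Without the 2 libraries whose totals were farthest from the median, these r were 0.15, 0.67 and 0.54, and the part of depth in the relation of *Etnk1* and *Pisd* was not tested. Of the 10 genes, *Pcyt1a* and *Pcyt2* had the r with the total farthest from 0, at 0.59 and −0.55 (permutation p = 0.0601 and 0.105). Without those 2 libraries, the r of *Pcyt1a* was 0.66 and that of *Pcyt2* −0.28.

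**Figure D2:**
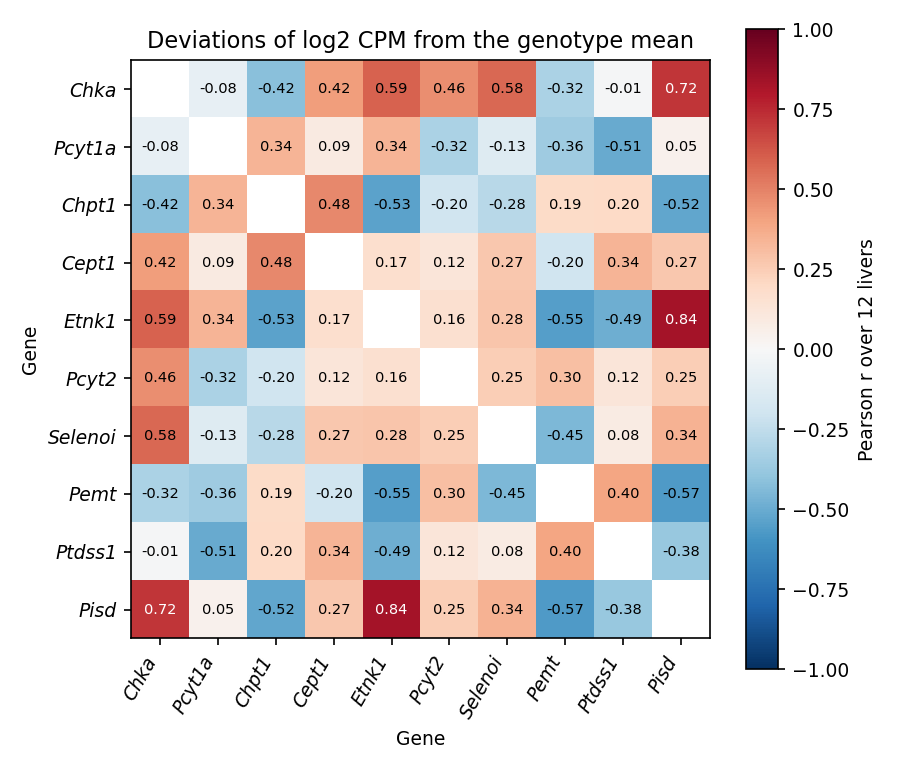
Pearson r of the deviations of log2 CPM from the genotype mean for each pair of the 10 synthesis genes over 12 livers, from −1 in blue to 1 in red. *Etnk1* and *Pisd* had the highest value, 0.84, and *Pemt* and *Pisd* the lowest, −0.57.

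Among the 12775 genes with a mean of at least 1 CPM, those whose deviations were most like those of *Pemt* over the 12 livers were *Pmf1* (r = 0.95, rho = 0.94), *Mthfd1* (r = 0.95, rho = 0.95) and *Shroom1* (r = 0.95, rho = 0.85). *Mthfd1* encodes a cytosolic enzyme of folate metabolism that supplies one-carbon units. For *Pcyt1a* they were *Ap5b1* (r = 0.92, rho = 0.86), *Snx16* (r = 0.87, rho = 0.80) and *Serpinb8* (r = 0.87, rho = 0.83), all with mean levels under 4 CPM in both genotypes. These values are the highest of a search over all those genes, so they describe likeness and carry no p. For *Chka*, looked at after its spread was seen, the most alike were *Nedd4l* (r = 0.96), *Nid2* (r = 0.94) and *Tmem30a* (r = 0.94). *Tmem30a* encodes a subunit of flippases, which move phospholipids across membranes.

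Promoter sequences from RefSeq (build GRCm38.p6) were at hand for 8 of the 10 genes, in 14 entries. The 250 bases before each start were searched on both strands for the GC box GGGCGG, the CCAAT box CCAAT and the E-box CACGTG, which 32.7%, 33.8% and 6.02% of 32851 promoters of that length held. The stretches before *Chka*, *Etnk1* and *Pisd* are shown because their pairs had the 3 highest r across livers, with the boxes in capitals and bases inside annotated exons left out. For *Pisd*, the outermost of its 2 starts was taken.
*Chka*, chr19:3851523-3851772, plus strand: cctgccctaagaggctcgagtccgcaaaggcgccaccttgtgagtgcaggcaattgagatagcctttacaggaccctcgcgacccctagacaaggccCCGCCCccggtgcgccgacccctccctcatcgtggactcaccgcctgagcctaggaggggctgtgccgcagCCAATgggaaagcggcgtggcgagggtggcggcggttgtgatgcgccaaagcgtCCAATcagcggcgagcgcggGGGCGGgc
*Etnk1*, chr6:143166980-143167220, plus strand: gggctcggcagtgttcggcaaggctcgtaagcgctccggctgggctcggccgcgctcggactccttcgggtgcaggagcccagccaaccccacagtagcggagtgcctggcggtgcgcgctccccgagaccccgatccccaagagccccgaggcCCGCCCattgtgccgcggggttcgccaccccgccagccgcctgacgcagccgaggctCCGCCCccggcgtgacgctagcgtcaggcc
*Pisd*, chr5:32785647-32785876, minus strand: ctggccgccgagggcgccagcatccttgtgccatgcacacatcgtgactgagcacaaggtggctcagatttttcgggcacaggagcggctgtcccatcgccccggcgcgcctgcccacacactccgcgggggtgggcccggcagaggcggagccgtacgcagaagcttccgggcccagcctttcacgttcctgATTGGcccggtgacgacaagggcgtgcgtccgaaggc
The *Chka* stretch held 2 GC boxes and 2 CCAAT boxes, that of *Etnk1* 2 GC boxes, and that of *Pisd* 1 CCAAT box, and none held the E-box letters. No box was common to all 3 stretches, and none of these boxes overlapped another. A match of letters is a description of the sequence and not evidence of binding.

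Several of the enzymes have a paralogue, and 0 of 4 paralogues passed an adjusted p of 0.05 in edgeR or limma voom. DESeq2 called 1 and gave *Pcyt1b* no adjusted p, and 1 of the 4 had an unadjusted p under 0.05 in edgeR. Over all genes these shares were 0.428% in edgeR, 0.485% in limma voom and 11.7% at an unadjusted p in edgeR. In DESeq2 the share was 2.31% of the genes with an adjusted p. *Chkb*, which encodes choline kinase beta, had 2.88, 3.26 and 3.66 normalized CPM (lowest, median, highest) in WT livers and 3.68, 5.26 and 6.33 in LKO livers. All 6 LKO livers were above all 6 WT livers, by a narrow gap between LKO replicate 6 and WT replicate 1. The log2 fold change was 0.63 with a 95% interval from 0.34 to 0.93 and an adjusted p of 0.0676 in edgeR, which misses the threshold, whereas DESeq2 gave an adjusted p of 0.00638 and edgeR without LKO replicate 6 gave 0.0282, the range over all alternatives being 0.00638 to 0.150. *Chkb* had 46 to 136 reads per liver, and its values are uncertain because 50.7% of its exon length is shared with the readthrough gene *Gm44502* on the same strand, which had 0 reads in every liver, and 10.45% with *C730034F03Rik* on the opposite strand, at 1.49 mean CPM in WT and 1.96 in LKO livers. The other paralogues gave log2 fold changes of −0.47 for *Pcyt1b*, with 1 to 7 reads per liver, −0.10 for *Etnk2* and 0.19 for *Ptdss2* (edgeR adjusted p = 0.736, 0.783 and 0.609). With single livers left out, they ran from −0.72 to −0.23, from −0.17 to −0.052 and from 0.11 to 0.25. *Etnk2*, an ethanolamine kinase of liver, had 331, 449 and 505 normalized CPM (lowest, median, highest) in WT livers. In LKO livers it had 334, 414 and 489, all inside the WT range. By the length of protein-coding transcripts, *Etnk2* stood at 172 ± 27.5 CPM per kb in WT livers, against 16.2 ± 4.17 for *Etnk1* (SD, n = 6).

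Around the synthesis genes, 51 of 56 genes in 9 lists, the paralogues among them, could be tested, and 1 rose and 0 fell at an adjusted p of 0.05 in edgeR, beside 0.428% of all genes called. Of the 51, 30 had a log2 fold change above 0 and 21 below, with a median of 0.07. At an unadjusted p under 0.05, 5 were higher and 6 lower in LKO livers, where 11.7% of all 17509 genes tested, 1109 higher and 938 lower, had such a p.

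The gene that rose was *Pltp*, which encodes phospholipid transfer protein, a plasma protein that moves phospholipids between lipoproteins. *Pltp* had 25.0, 34.9 and 92.3 normalized CPM (lowest, median, highest) in WT livers and 110, 135 and 170 in LKO livers. All 6 LKO livers were above all 6 WT livers, and WT replicate 3 was the highest of its group. Its log2 fold change was 1.57, a 2.97-fold difference with a 95% interval from 1.98 to 4.45 (edgeR adjusted p = 0.0171). The call was lost without WT replicate 5, at an edgeR adjusted p of 0.0585 and a log2 fold change of 1.48. Over the 19 alternatives the adjusted p ranged from 3.35e-06 to 0.0585, and 18 of them called *Pltp*. Of the exon length of *Pltp*, 19.3% is shared with *Ctsa* on the opposite strand, which had 126 mean CPM in WT and 132 in LKO livers. The value of *Pltp* is uncertain to that extent. Macrophages also express *Pltp*. All 8 Kupffer cell markers had log2 fold changes above 0, 7 of them at an unadjusted p under 0.05 and 0 at an adjusted p of 0.05 in edgeR or limma voom, with a median of 0.41, while DESeq2 called 3. Of all genes 11.7% had an unadjusted p under 0.05 in edgeR, and DESeq2 called 2.31% of those with an adjusted p. Their summed level was 112, 151, 134, 136, 147 and 140 CPM in WT replicates 1 to 6 and 178, 189, 243, 177, 165 and 142 CPM in LKO replicates 1 to 6. *Clec4f* was the most abundant of the 8, none of them was at 0 in any liver, and their part in the *Pltp* value was not tested.

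In the same list of phosphatidylcholine transfer and export, 4 of 6 genes were higher and 2 lower. *Pctp*, which encodes a cytosolic carrier of phosphatidylcholine, had 71.2, 80.9 and 127 normalized CPM (lowest, median, highest) in WT livers and 96.1, 127 and 161 in LKO livers. Each of the 6 LKO livers was above the WT mean but the groups overlapped, and the log2 fold change of 0.46 missed the threshold (edgeR adjusted p = 0.273).

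Choline that is not phosphorylated can be oxidized to betaine, a methyl donor. The 6 genes listed for choline oxidation and the steps after it all had log2 fold changes below 0, with a median of −0.21. Of these, 4 had an unadjusted p under 0.05 in edgeR and 0 an adjusted p of 0.05 in edgeR or limma voom. DESeq2 called 2, and the shares to set beside these counts are the same 11.7% and 2.31%. *Chdh*, the choline dehydrogenase gene, had a log2 fold change of −0.05, with all 6 LKO values inside the WT range (edgeR adjusted p = 0.832). *Bhmt2* stood at −0.10 and *Aldh7a1* at −0.17 (edgeR adjusted p = 0.684 and 0.363). *Bhmt*, whose product uses betaine to methylate homocysteine, had 1079, 1488 and 2122 normalized CPM (lowest, median, highest) in WT livers and 756, 1039 and 1171 in LKO livers. All 6 LKO livers were below the WT mean, and WT replicate 6 was the WT liver that overlapped them. The log2 fold change of *Bhmt* was −0.64 with a 95% interval from −0.97 to −0.31 (edgeR adjusted p = 0.0903). DESeq2 called it at an adjusted p of 0.00796, within a range from 0.00796 to 0.202 over the alternatives. *Dmgdh* and *Sardh* encode the mitochondrial dehydrogenases of dimethylglycine and sarcosine, the next steps after *Bhmt*. *Dmgdh* had a log2 fold change of −0.37 (edgeR adjusted p = 0.0954; 0.0109 in DESeq2, 0.0427 without WT replicate 6, and 0.0109 to 0.219 over the alternatives), and *Sardh* one of −0.26 (edgeR adjusted p = 0.226). LKO values were below the WT mean in all 6 livers for both genes, and the groups overlapped. Beside these, 5 of 6 hepatocyte markers and 6 of 8 periportal markers had log2 fold changes below 0, with medians of −0.06 and −0.11, and 0 of them passed an adjusted p of 0.05 in edgeR or limma voom, 1 of each list had an unadjusted p under 0.05, and DESeq2 called 1 periportal gene. The summed hepatocyte level ran from 86412 to 105947 CPM in WT and from 78977 to 87441 CPM in LKO livers. Most of it was *Alb*, with means of 76078.5 CPM in WT and 66976.9 in LKO livers, within summed means of 92245.7 and 83203.8. *Alb* had a log2 fold change of −0.18, and the other hepatocyte markers ran from −0.07 for *Cyp3a11* to 0.09 for *Ttr*. The part of the summed level in the values of the choline oxidation list was not tested.

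**Figure D3:**
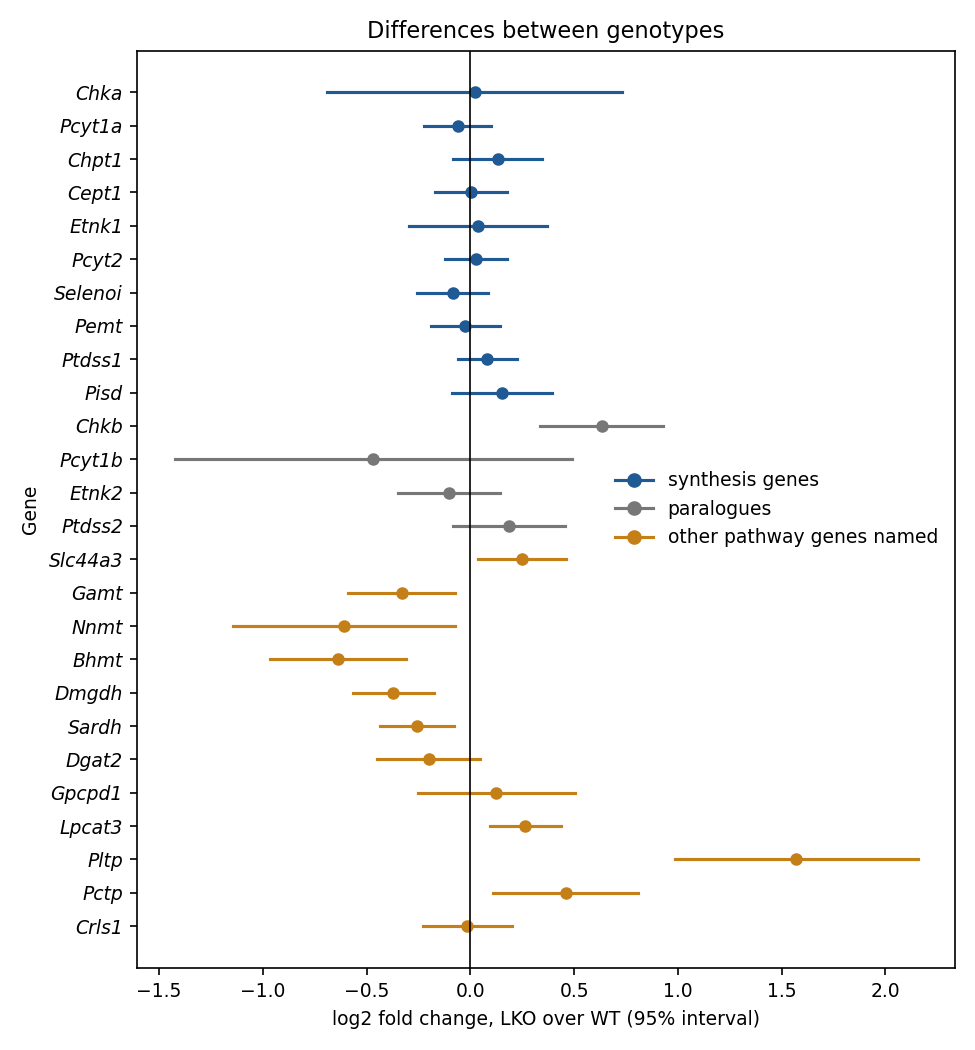
Log2 fold changes of LKO over WT livers (points) with 95% intervals (lines) from edgeR, for the 10 synthesis genes, their 4 paralogues and the named genes of the other lists. The synthesis genes lie between −0.09 and 0.15, whereas *Pltp* stands at 1.57. *Bhmt*, *Dmgdh* and *Sardh*, named from the choline oxidation list for their lowest unadjusted p, lie below 0. The rest of that list is not drawn.

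Of the 35 tested genes in the remaining 6 pathway lists, 0 passed an adjusted p of 0.05 in edgeR, limma voom or DESeq2, and 4 had an unadjusted p under 0.05 in edgeR, beside 11.7% of all genes. Of 5 tested genes for choline and ethanolamine uptake, all 5 had log2 fold changes above 0, with a median of 0.21. *Slc44a3*, of the choline transporter-like family, had 6.81, 7.51 and 8.69 normalized CPM in WT livers (lowest, median, highest) and 7.49, 9.17 and 10.7 in LKO livers, overlapping groups with a log2 fold change of 0.25 (edgeR adjusted p = 0.327). *Slc44a4*, *Slc44a5* and *Slc5a7* had too few reads to be tested. In methyl donor supply and use, 4 of 7 were higher and 3 lower, with a median of 0.02. *Gamt*, which spends S-adenosylmethionine on creatine, had a log2 fold change of −0.33, below the WT mean in all 6 LKO livers, and *Nnmt*, which spends it on nicotinamide, had one of −0.61 (edgeR adjusted p = 0.281 and 0.347). Both groups overlapped for each, and LKO replicate 6 had the highest *Nnmt* of all 12 livers at 154 CPM.

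The list of phosphatidylcholine deacylation and reacylation had 6 of 7 tested genes above 0 and 1 below, with a median of 0.16, and *Mboat2* was not tested. *Lpcat3*, which returns polyunsaturated acyl chains to lysophosphatidylcholine, had 71.2, 83.4 and 87.4 normalized CPM in WT livers (lowest, median, highest) and 81.1, 99.7 and 112 in LKO livers. Only LKO replicate 6 fell inside the WT range, and the log2 fold change of 0.27 missed the threshold (edgeR adjusted p = 0.184). The 5 genes of diacylglycerol supply and its use for triglyceride, 3 higher and 2 lower, had a median of 0.11. Among them *Dgat2*, which draws diacylglycerol into triglyceride, had a log2 fold change of −0.20 (edgeR adjusted p = 0.535), and −0.12 without LKO replicate 1. In headgroup intermediate breakdown 2 of 4 tested genes were higher and 2 lower, with a median of −0.08, and *Gpcpd1*, which splits glycerophosphocholine, had one of 0.13 (edgeR adjusted p = 0.841), which was 0.0098 without LKO replicate 6 and 0.22 without LKO replicate 1; *Phospho1* was not tested. The branch through CDP-diacylglycerol to cardiolipin and phosphatidylinositol had 4 of 7 higher and 3 lower, with a median of 0.09, and *Crls1*, the cardiolipin synthase gene, stood at a fold of 0.990 (edgeR adjusted p = 0.975).

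Markers of the remaining cell types, 33 genes, held 0 past an adjusted p of 0.05 in edgeR or limma voom. DESeq2 called 1 of them, the endothelial *Lyve1*, beside 2.31% of the genes to which it gave an adjusted p. Log2 fold changes were above 0 for 4 of 8 pericentral hepatocyte, 7 of 8 sinusoidal endothelial, 7 of 7 stellate, 3 of 5 cholangiocyte and 5 of 5 B cell markers, with medians of 0.0039, 0.07, 0.22, 0.25 and 0.87, beside 0.00016 over all genes. At an unadjusted p under 0.05 in edgeR, which 11.7% of all genes had, 2 pericentral genes and 1 cholangiocyte gene were lower, and 1 endothelial, 1 stellate and 4 B cell genes were higher. The B cell markers were scarce, at a summed 0.967 to 1.88 CPM in WT and 1.81 to 3.29 CPM in LKO livers. LKO replicate 1, which had the highest *Etnk1* and *Pisd* of its group, also had the highest summed levels of the cholangiocyte list, 129 CPM against 34.1 to 63.5 in the other livers, and of the stellate list, 275 CPM against 152 to 249. *Spp1* alone gave 114 of the 129 CPM. Of the other cholangiocyte markers, *Epcam* and *Krt19* were highest of all livers in LKO replicate 1 at 3.12 and 1.44 CPM, whereas *Sox9* at 9.63 CPM and *Krt7* at 0.698 CPM lay inside the WT range. The most abundant stellate marker, *Dcn*, lay inside the WT range there at 118 CPM, as did *Reln* at 46.9 CPM, whereas *Col3a1* at 47.2 CPM, *Col1a1* at 28.3 CPM, *Lrat* at 18.9 CPM, *Pdgfrb* at 12.2 CPM and *Des* at 3.77 CPM were highest of all livers. None of the markers of either list was at 0 in every liver, and the part of these values in those of *Etnk1* and *Pisd* was not tested.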

How the data were processed

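The authors made liver mRNA libraries (KAPA mRNA HyperPrep, HiSeq4000) and ran FastQC 0.11.15, Trimmomatic 0.36, HISAT2 2.1.0 (Ensembl 93, GRCm38.p6) and HTSeq 0.6.1. They deposited counts per Ensembl gene, unscaled and unfiltered. Strand setting and overlap mode are not given in the sources used here, so reads of overlapping or near-identical genes may be lost or misplaced. GENCODE M21 (GRCm38) gave symbols, positions and lengths and matched 54165 of 54232 identifiers.

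A gene was kept if over 2 reads were counted in 6 or more livers, which left 17509. Counts were TMM-scaled and fitted with genotype as the only term in edgeR 4.0.16 (R 4.3.3), whose quasi-likelihood p-values were adjusted by Benjamini-Hochberg over all genes. The code was tested on simulated data. Intervals of 95% were derived from each fold change and its F value, and log2 CPM used a prior count of 0.5. Totals of 14860414 to 22111926 reads set the counting error only. Correlations used 100000 permutations within genotype, two-sided. Named genes were the synthesis genes, *Marchf6*, the paralogues, from each other list up to 3 genes with the lowest unadjusted p under 0.05 or else the one highest per length, and the 3 genes most like *Pemt* and *Pcyt1a*. *Nedd4l*, *Nid2*, *Tmem30a* and the promoters shown were chosen after values were seen. Members and lists were chosen with earlier results of these data known. Alternatives were RLE scaling, library sizes without the 20 most abundant genes, no filter, at least 10 reads in every liver, limma 3.58.1 (voom), DESeq2 1.42.0, a replicate block and each liver left out.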

Additional observations from a re-analysis of the deposited data

Results flagged for a closer look

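In 68 groups of 6 livers (the named genes and the total counts, each genotype on its own), 6 times a liver lay far from the rest of its group by Dixon's ratio, the gap to the nearest liver over the whole range; chance flags about 1 in 20 groups, or 3.4 of 68. *Etnk1* was highest in WT replicate 2 (ratio 0.640) and in LKO replicate 1 (0.671), and *Pisd* was highest in LKO replicate 1 (0.662). *Dmgdh* was highest of the LKO livers in replicate 4 (0.650), and *Sardh* was highest of the WT livers in replicate 5 (0.716). *Lpcat3* was lowest of the WT livers in replicate 5 (0.668).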

How the results depend on the processing

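Of the 10 synthesis genes, 0 passed an adjusted p of 0.05 or an unadjusted p under 0.05 under any of the 19 alternatives, and their lowest adjusted p was 0.464. The number of all genes called moved from 75 to 114 without a filter and to 350 (179 higher) with DESeq2, and was between 38 and 132 when single livers were left out. The sign of log2 fold changes near 0 turned in 19 of 190 values of the synthesis genes. *Chka* was −0.077 with limma voom and −0.32 to 0.22 with single livers left out, *Cept1* −0.046 to 0.045, *Etnk1* −0.083 to 0.18, *Pcyt2* −0.012 to 0.064 and *Pemt* −0.063 to 0.017. Among other named genes, *Crls1* was 0.0020 without a filter and −0.062 to 0.060 with single livers left out, *Pmf1* −0.013 with limma voom and −0.059 to 0.075, and *Snx16* 0.0086 without a filter, 0.0016 with at least 10 reads in every liver and −0.11 to 0.057. With single livers left out and no turn of sign, *Pcyt1a* ran from −0.10 to −0.029, *Selenoi* from −0.13 to −0.046 and *Ptdss1* from 0.047 to 0.11. Calls of *Chkb*, *Bhmt*, *Dmgdh* and *Pltp* changed as given with their values, and the cause of these changes was not tested. With RLE scaling, 1 of the 45 pairs passed as well.

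With the replicate number as a replicate block, 97 genes were called, 60 of them also without it, 0 of the synthesis genes were called, and *Chka* was −0.072. Livers with the same number had correlations of 0.12, 0.14, −0.065, 0.10, 0.040 and 0.11 between their deviations from the group means, and 2 of 6 numbers matched best, so the numbers were not taken to pair mice. With 114 reads in a liver, *Pisd* had the least depth of the 10.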
